A study of Mus musculus with 15 samples.

Results

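Gene expression was compared between 6 liver tumours of mice carrying an Albumin-Cre deletion of Hmgb1 and 6 liver tumours from floxed control mice, over all genes of 1 table of read counts. The 12 tumour libraries are all those that the labels place in these 2 groups, out of 15 libraries in all. The other 3 are normal livers of C57Bl/6 mice, for which the labels name no treatment, and they serve here only as levels for orientation. The floxed tumours came from Hmgb1 fl/fl mice, in which loxP sites flank part of the gene and leave it intact. The Hmgb1-deleted tumours came from Hmgb1 fl/fl mice that also carried Albumin-Cre, a genotype the labels write as Hgmb1Dhep. Both groups received diethylnitrosamine (DEN) at 25 mg/kg into the peritoneum on day 15 after birth. They then received CCl4 in corn oil at 0.5 µl/g every week for 15 weeks from week 8. The labels do not say whether the floxed mice were littermates of the deleted mice, which strain either group had, or whether 1 mouse gave more than 1 tumour. The p-values therefore measure the spread between these tumours. Neither treated liver outside a tumour nor untreated liver of the deleted genotype was analysed here, so loss of the gene and what it does to tumour formation cannot be told apart.

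HMGB1 is an abundant nuclear protein that binds and bends DNA, and when cells die or are stressed it leaves them and acts as an alarm signal through receptors such as AGER (RAGE) and TLR4. DEN is activated by hepatocyte cytochrome P450 enzymes into an alkylating mutagen, and repeated CCl4 injures hepatocytes and drives regeneration and fibrosis, so the combination gives hepatocellular tumours in an injured liver. Albumin-Cre is active in hepatocytes and in bile duct cells that share their origin. Kupffer cells, endothelium, stellate cells and lymphocytes keep an intact gene, and RNA from them counts in a bulk tumour library.

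Each tumour library held between 18973246 and 30929442 counts, so a gene with 0 counts in a library could be at up to 0.11 to 0.169 CPM (reads scaled to a common library size) from counting error alone. The hepatocyte marker Alb, which encodes albumin, alone took 11.2% to 19.6% of counts in floxed tumours and 7.69% to 13% in Hmgb1-deleted tumours. All 15 libraries had the pattern of male mice, with 1147 to 2125 counts of the Y-linked gene Ddx3y and at most 20 counts of Xist. A principal component analysis of the 12 tumours separated the groups on the first component (29.9% of the variance), with the floxed group scoring -43.3 to -13.4 and the deleted group 9.55 to 48.3. The second component (25.6%) split the deleted tumours. Tumours 3, 4 and 6 of that group lay at -46, -44.8 and -33.7, and tumours 2 and 5 lay at 35.9 and 38.6 together with floxed tumour 5 at 38.8. The labels name nothing that sets these libraries apart, so each count that leads a paragraph was also computed without deleted tumours 2 and 5 and without deleted tumours 3, 4 and 6.

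**Figure D1:**
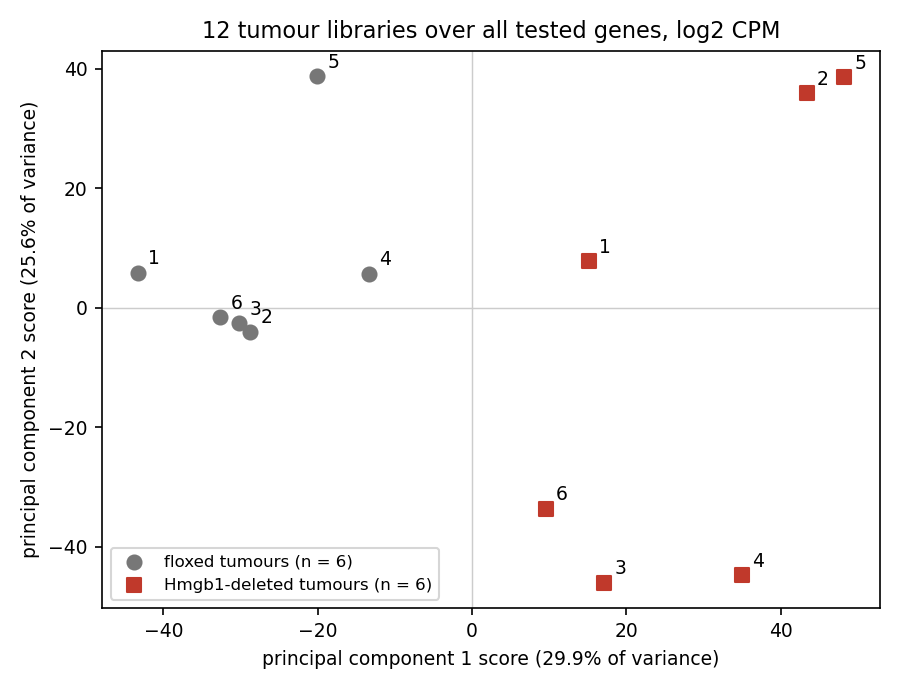
Each point is 1 tumour library, numbered by its replicate label, placed by its scores on the first and second principal components of log2 CPM over all tested genes. The groups separate along the horizontal axis, where the 6 floxed libraries score -43.3 to -13.4 and the 6 deleted libraries 9.55 to 48.3, and the deleted tumours 3, 4 and 6 lie below 2 and 5 on the vertical axis.

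Hmgb1 was the first gene examined, since it tests the labels. Its levels were 29.5, 31.1, 31.8, 26.6, 23.3 and 25.5 CPM in floxed tumours 1 to 6 and 9.59, 15, 14.8, 17.8, 16.2 and 15.2 CPM in deleted tumours 1 to 6. The 2 groups did not overlap, and deleted tumour 1 was the lowest. The mean log2(CPM + 1) was lower by 0.89 in deleted tumours (exact two-sided permutation test, p = 0.00216, the smallest value this design allows). Normal livers held 19.1 to 30.7 CPM. The remaining Hmgb1 reads were not assigned to cell types or exons, so cells that escaped Cre, cells that never express it and reads from undeleted exons cannot be told apart.

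No other member of the HMG family was called by edgeR's quasi-likelihood test across all genes (Benjamini-Hochberg adjusted p under 0.05). Hmgb2, the paralogue of dividing cells, was at 1.15, 2.1 and 2.29 CPM in floxed tumours and 0.512, 2.23 and 4.05 CPM in deleted tumours (lowest, median and highest, as for all such triples here). Hmgb3, another HMG-box paralogue, was at 3.45, 4.63 and 4.97 CPM and 4.51, 6.06 and 8.58 CPM (log2 fold change 0.59 ± 0.19, adjusted p = 0.0704). The groups overlapped for both genes. Hmgb3 was called higher by DESeq2 (adjusted p = 0.0243), when all 15 libraries were fitted together in edgeR (0.0406) and without deleted tumour 6 (0.0436). Of 13 tested genes of HMG chromatin proteins edgeR called Hmgb1 alone (7.69%, near the 7.78% of all tested genes). At an unadjusted p under 0.05 there were 3 higher and 2 lower. DESeq2 called 2 higher and 1 lower, voom 1 lower, and edgeR 2 higher and 1 lower in the joint fit, 1 in each direction on library totals without a factor, and 2 lower without deleted tumours 3, 4 and 6.

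Over the whole transcriptome 13433 genes could be tested, and 1045 of them (7.78%) were called changed by the same test. Below, called, rose and fell refer to this test wherever no other tool is named. There were 598 genes higher in deleted tumours (4.45% of tested genes) and 447 lower (3.33%), and 265 of the former and 264 of the latter differed by at least 2-fold. The balance between the directions moved with the scaling of the libraries: it was 535 higher and 524 lower with RLE factors, and 982 higher and 257 lower when plain library totals were used, a scaling that shifts the median log2 fold change of all genes from 0.02 to 0.20. Changes are therefore read against a median of 0.02, and calls that miss the threshold without a factor are named below. Leaving out deleted tumour 4 cut the calls to 589, the lowest count for any 1 library, and leaving out deleted tumour 1 gave 1054. For this reason calls that stayed past the threshold in all 12 fits with 1 library left out are called stable here. There were 509 stable calls (3.79% of tested genes), 271 higher (2.02%) and 238 lower (1.77%). The levels of the 2 groups did not overlap at all for 662 genes (4.93%), of which 350 were higher and 312 lower in deleted tumours, and 399 of the 509 stable calls were among them.

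Variation within the groups was alike in size. The median SD of log2(CPM + 1) over genes was 0.296 in floxed tumours and 0.285 in deleted tumours, and 48.6% of tested genes had the larger SD in deleted tumours. The called genes split by direction: of the 598 higher in deleted tumours 386 varied more there, and of the 447 lower 188 did. The added 1 narrows this SD at low CPM, so the split can follow in part from the direction itself.

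**Figure D2:**
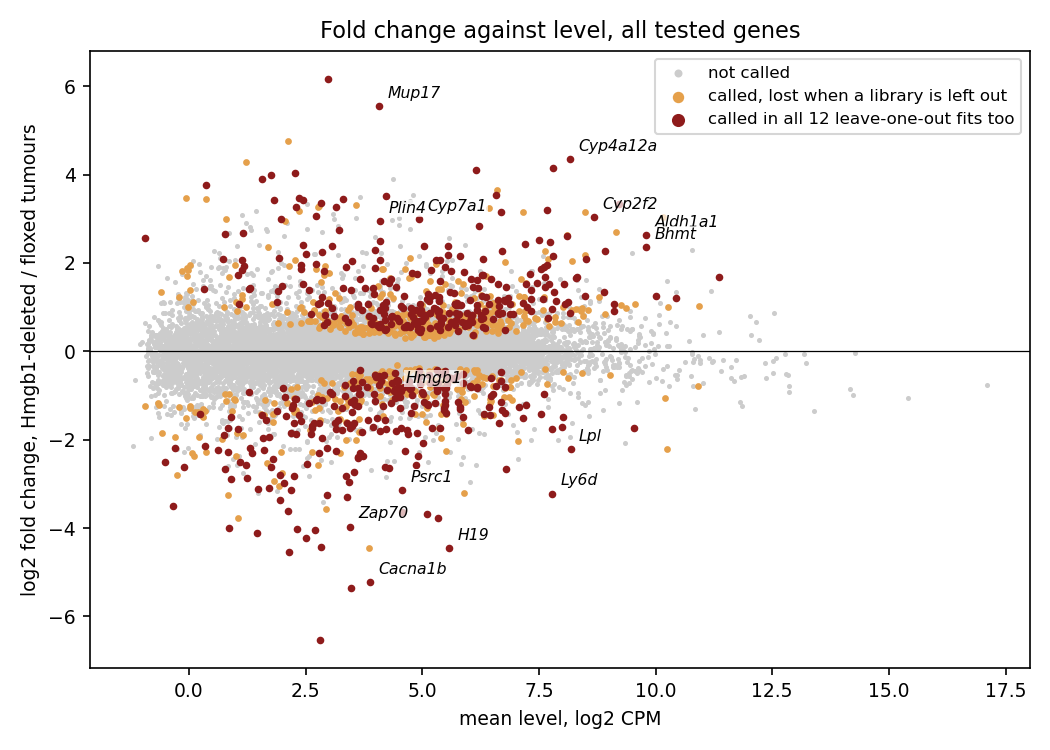
Each point is 1 of 13433 tested genes, placed by its mean log2 CPM and by its log2 fold change of Hmgb1-deleted over floxed tumours. Dark red points are the 509 stable calls and orange points the called genes that miss the threshold when some library is left out. Labels mark genes named in the text, such as Psrc1 at -3.14 and Cyp7a1 at 2.99.

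The gene with the smallest p among those that rose was Pm20d2, which encodes a peptidase that removes unwanted dipeptide products. It was at 1.46, 1.95 and 2.51 CPM in floxed tumours and 7.18, 9.22 and 11 CPM in deleted tumours. All 6 deleted tumours lay above all floxed tumours, and the highest of them reached the 10.1 to 15.4 CPM of normal livers. Its log2 fold change was 2.21 ± 0.19 (SE, adjusted p = 0.000242). Next was Hsdl2, a peroxisomal short-chain dehydrogenase, at 22.1, 25.7 and 34 CPM against 60.8, 64.6 and 75.1 CPM. The lipid droplet gene Plin5 and the lipase gene Mgll, both described below, followed. Aldh1a1 and Aldh1a7, cytosolic aldehyde dehydrogenases of which Aldh1a1 makes retinoic acid, rose by 2.63 and 2.48 on the log2 scale (adjusted p = 0.000878 for both). Aldh1a1 was at 149.9, 208 and 452 CPM against 1015, 1361 and 2392 CPM, and it lay at 1494 to 1858 CPM in normal livers. The other leaders were Aadat, a mitochondrial aminotransferase of the lysine and kynurenine pathways (2.19 ± 0.24), Dpp4, a membrane peptidase of the bile canaliculus (1.61 ± 0.18), Gas2, an actin-binding protein (1.64 ± 0.19), Acad9, a mitochondrial protein needed to assemble respiratory complex I (0.87 ± 0.11), and Ablim3, another actin-binding protein (2.28 ± 0.28). For each of these genes the 2 groups did not overlap, and each call was stable.

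**Figure D3:**
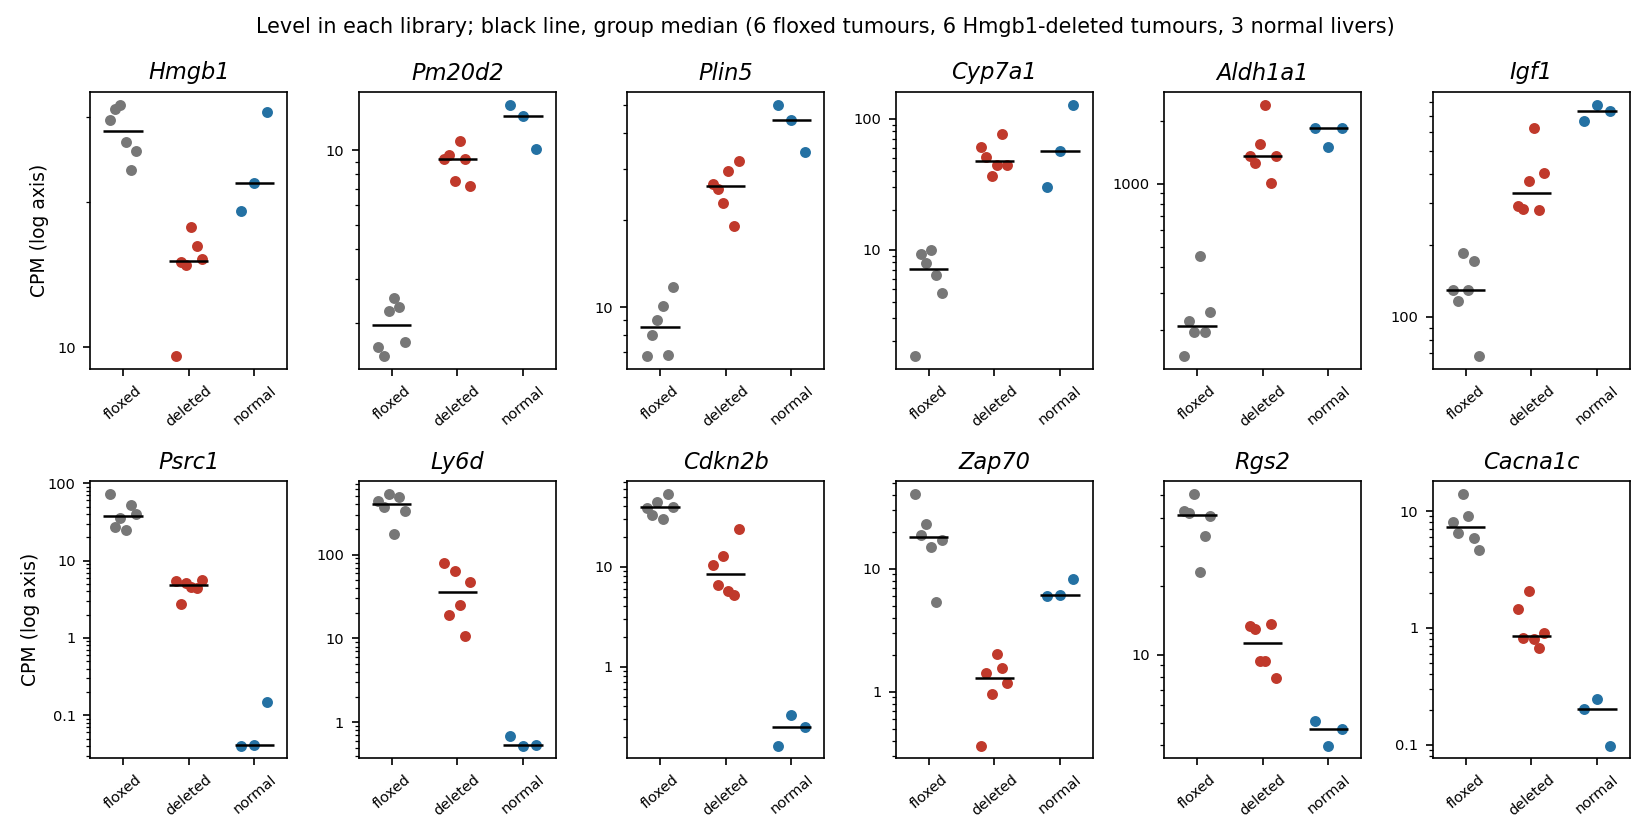
Each panel shows 1 gene's CPM on a log axis in 6 floxed tumours, 6 Hmgb1-deleted tumours and 3 normal livers, with 1 point per library and a black line at the group's median. In the 12 genes drawn no deleted tumour overlaps a floxed tumour, and Pm20d2, Plin5, Cyp7a1, Aldh1a1 and Igf1 are higher in deleted tumours while the other 7 genes are lower.

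Among the gene lists, fatty acid oxidation had the greatest share of genes that rose. Hepatocytes burn fatty acids in mitochondria and peroxisomes and turn surplus acetyl-CoA into ketone bodies, and the nuclear receptor PPAR-alpha drives many of the genes. Of 39 tested members of this list 19 rose, 16 of them with a stable call, and none fell (48.7% called, against 7.78% of all tested genes; median log2 fold change 0.83 against 0.02). At an unadjusted p under 0.05 there were 29 higher, with DESeq2 25 and with voom 23, and none lower in each. Without deleted tumours 3, 4 and 6 there were 9 that rose, without deleted tumours 2 and 5 there were 25, and library totals without a factor gave 29. Etfdh, which passes electrons from fatty acid oxidation to ubiquinone, was at 50.8, 68.7 and 82.4 CPM in floxed tumours and 122, 155 and 189.7 CPM in deleted tumours. Ech1, an auxiliary enzyme for unsaturated fatty acids, was at 96, 117 and 141 CPM and 226, 237 and 362 CPM. Neither gene overlapped between groups, and the 3 normal livers were higher still, at 354 to 459.6 and 378 to 429 CPM. The log2 fold changes were 1.21 ± 0.16 for Etfdh and 1.18 ± 0.15 for Ech1 (adjusted p = 0.00154 for both).

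Genes of fatty acid uptake and import were among those that rose. Cd36, a fatty acid uptake receptor, was at 55, 83 and 141 CPM in floxed tumours and 131, 241 and 272 CPM in deleted tumours, with overlap of the ranges. Normal livers lay below both groups, at 27.2 to 33.1 CPM. Cpt2, the inner carnitine palmitoyltransferase, rose by 1.07 ± 0.17, the carnitine carrier Slc25a20 by 0.83 ± 0.18 and Crot, the peroxisomal carnitine octanoyltransferase, by 1.26 ± 0.22 on the log2 scale. Within mitochondria Acadm, Hadh, Decr1, Eci1 and Eci2, which carry out or assist the beta-oxidation cycle, rose by 0.74, 0.95, 1.09, 1.24 and 1.13. The peroxisomal genes Ehhadh and Acaa1b rose by 1.76 ± 0.38 and 2.28 ± 0.40, and the thioesterases Acot1 and Acot3, whose near-identical copies make their counts uncertain, by 2.39 ± 0.49 and 3.36 ± 0.64. Acaa1b spread widely among deleted tumours, at 222, 819 and 1422 CPM against 117, 155 and 217 CPM in floxed tumours. Crot, Hadh, Eci2, Ehhadh, Slc25a20, Acadm and Acot1 missed the threshold without deleted tumours 3, 4 and 6. Ppara itself, which encodes the receptor, was at 60.8, 130 and 228 CPM in floxed tumours and 70.1, 110 and 304 CPM in deleted tumours, with wide overlap and no call (adjusted p = 0.712).

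Lipid droplets store triglyceride behind a coat of perilipin proteins. Of 21 tested genes of droplet proteins and lipases 4 rose and 1 fell (23.8% called, against 7.78% of all tested genes), with a stable call for 3 and 1. Without deleted tumours 2 and 5 there were 8 higher and 2 lower, and without 3, 4 and 6 there were 3 in each direction. Plin5, a perilipin that ties droplets to mitochondria, was at 6.76, 8.51 and 11.7 CPM in floxed tumours and 19.1, 26.2 and 32 CPM in deleted tumours. Plin4, a perilipin of nascent droplets whose gene lies beside Plin5 on the same strand of chromosome 17, was at 0.944, 3.82 and 6.37 CPM and 13.2, 22 and 64.8 CPM. All deleted tumours were above all floxed tumours for both genes, but in normal livers Plin5 was higher still (34.6 to 50.2 CPM) while Plin4 was at 3.67 to 4.79 CPM, as in floxed tumours. The log2 fold changes were 1.59 ± 0.17 for Plin5 and 2.95 ± 0.48 for Plin4 (adjusted p = 0.000777 and 0.0057). Mgll, the last lipase of triglyceride breakdown, rose by 1.73 ± 0.19, from 26.8, 34.8 and 52.6 CPM to 98.1, 112 and 163 CPM. Lpl, the lipoprotein lipase that adult hepatocytes hardly express, fell by 2.22 on the log2 scale (SE 0.44), from 135, 446 and 935 CPM to 52.7, 100.5 and 162 CPM, with some overlap, and lay at 30.3 to 41.5 CPM in normal livers. In the list of fatty acid synthesis, 2 of 26 tested genes rose and 1 fell, and without deleted tumours 2 and 5 there were 4 higher and none lower. Me1, the malic enzyme that supplies NADPH, rose by 1.05 ± 0.19. Scd2, a stearoyl-CoA desaturase, fell to 53, 119 and 221 CPM from 248, 346 and 553 CPM, a call that missed the threshold without deleted tumours 2 and 5.

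The promoter windows of Plin5 and Plin4 are shown because these neighbouring genes rose together, and those of Psrc1 and Btg2 because both are p53 targets that fell, as described further on. Each runs from 250 bases before to 50 bases after a transcript's start and is given 5′ to 3′ in the gene's direction, from RefSeq on build GRCm38.p6. They lie at chr17:56117499-56117798 (minus strand, Plin5), chr17:56109733-56110032 (minus strand, Plin4), chr3:108383554-108383853 (plus strand, Psrc1) and chr1:134079106-134079405 (minus strand, Btg2). Plin5 and Psrc1 have 2 windows each, of which the first is shown. Capitals mark AGGTCA, the half-site of nuclear receptors such as PPAR-alpha, or its reverse complement, and TGACGTCA, the cAMP response element.
Plin5: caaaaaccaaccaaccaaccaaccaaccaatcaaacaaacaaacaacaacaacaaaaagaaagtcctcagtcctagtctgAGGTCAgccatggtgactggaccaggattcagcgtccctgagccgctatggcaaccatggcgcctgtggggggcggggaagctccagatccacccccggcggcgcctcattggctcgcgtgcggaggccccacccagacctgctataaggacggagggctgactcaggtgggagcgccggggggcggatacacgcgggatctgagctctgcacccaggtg
Plin4: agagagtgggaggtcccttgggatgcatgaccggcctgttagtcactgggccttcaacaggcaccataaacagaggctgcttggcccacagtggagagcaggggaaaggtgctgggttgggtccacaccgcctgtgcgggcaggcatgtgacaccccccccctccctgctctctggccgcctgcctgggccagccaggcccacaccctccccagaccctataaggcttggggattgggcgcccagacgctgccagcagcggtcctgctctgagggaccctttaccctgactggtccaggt
Psrc1: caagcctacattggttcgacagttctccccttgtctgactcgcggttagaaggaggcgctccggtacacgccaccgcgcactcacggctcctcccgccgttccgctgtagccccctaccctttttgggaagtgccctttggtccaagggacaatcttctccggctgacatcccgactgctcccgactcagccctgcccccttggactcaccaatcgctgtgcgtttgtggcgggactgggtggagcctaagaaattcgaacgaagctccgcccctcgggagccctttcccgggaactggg
Btg2: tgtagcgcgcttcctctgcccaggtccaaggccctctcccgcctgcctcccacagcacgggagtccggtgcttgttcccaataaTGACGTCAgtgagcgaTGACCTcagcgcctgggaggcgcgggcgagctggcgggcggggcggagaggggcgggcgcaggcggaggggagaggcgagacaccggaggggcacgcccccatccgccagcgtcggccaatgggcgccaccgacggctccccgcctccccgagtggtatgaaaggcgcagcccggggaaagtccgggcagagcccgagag
The Plin5 window held AGGTCA once, 170 bases before the start, and the second Plin5 window, not shown, held it 13 bases after its own start. The Btg2 window held TGACGTCA 166 bases and, without overlap, AGGTCA on the other strand 150 bases before the start. Plin4 and Psrc1 held none of 5 motifs searched on both strands (AGGTCA, TGACGTCA, CCGGAAGT for ETS factors, TATAAA for the TATA box and the serum response element). AGGTCA was in 16.3% of all windows, 13.1% of those of tested genes, 17.6% of those of genes with a stable rise and 16.7% of those with a stable fall. TGACGTCA was in 1.79%, 2.87%, 1.96% and 2.44%, CCGGAAGT in 3.89%, 7.29%, 5.1% and 2.85%, and TATAAA in 13.6%, 7.84%, 10.2% and 6.91% of the same sets. The serum response element was in 0.0639% of all windows, in 0.0245% of those of tested genes and in none of those of genes with stable calls. Such matches describe letters in these windows and say nothing of binding.

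Bile acid synthesis and transport stood beside fatty acid oxidation. The liver turns cholesterol into bile acids, and CYP7A1 sets the pace of the main route. Of 28 tested genes 9 rose, 7 with a stable call, and none fell (32.1% called, against 7.78% of all tested genes). The median log2 fold change of the list was 0.90, against 0.02 for all tested genes. There were 14 higher and 1 lower at an unadjusted p under 0.05, and DESeq2 and voom called 11 and 9 higher and 1 lower each. Cyp7a1 was at 1.54, 7.19 and 9.99 CPM in floxed tumours and 36.3, 47.7 and 76.3 CPM in deleted tumours. The lowest deleted tumour was far above the highest floxed tumour, and normal livers spanned 30 to 128 CPM. Its log2 fold change was 2.99 ± 0.37 (adjusted p = 0.00131), a 7.97-fold difference. Further along the route Cyp27a1, a mitochondrial sterol hydroxylase, Akr1d1, a steroid reductase, Hsd17b4, which shortens the side chain in peroxisomes, and Baat, which joins bile acids to taurine, rose by 1.56, 1.52, 1.13 and 1.92 on the log2 scale. The uptake carriers Slco2b1 and Slco1b2 rose by 2.16 ± 0.30 and 2.16 ± 0.46. Without deleted tumours 3, 4 and 6 there were 6 genes of the list that rose and 1 that fell, and Hsd17b4 and Slco1b2 missed the threshold. Nr1h4, which encodes the bile acid receptor FXR, was called higher (0.86 ± 0.20, adjusted p = 0.0211) but lost the call without deleted tumour 4. Onecut1, a hepatocyte transcription factor that acts on Cyp7a1, rose by 1.82 ± 0.35 with a stable call, from 1.07, 3.29 and 5.33 CPM to 8.39, 9.44 and 19.4 CPM. It missed the threshold when all 15 libraries were fitted together, and it varied widely in normal livers, at 3.01 to 107 CPM.

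Some drug-metabolising enzymes rose too, and most P450 calls were lost without deleted tumours 3, 4 and 6. Of 34 tested genes of cytochrome P450 families 1 to 4 and flavin monooxygenases 11 rose, 6 with a stable call, and none fell. The share called was 32.4%, against 7.78% of all tested genes. The unadjusted p was under 0.05 for 17 higher and 1 lower, DESeq2 called 17 and 1, and voom 12 higher and none lower. Without deleted tumours 3, 4 and 6 there was 1 that rose and 1 that fell. Cyp2f2, a lung and liver P450 of the periportal zone, was at 49.9, 83.5 and 135 CPM in floxed tumours and 243, 715 and 1196 CPM in deleted tumours, without overlap (3.03 ± 0.40, adjusted p = 0.0017). It kept its call without the 3 tumours. Cyp2c50, Cyp2c54, Cyp2c37 and Cyp2c29, close copies whose counts are uncertain, rose by 3.20, 3.53, 3.15 and 2.61. In these the deleted tumours spread widely, Cyp2c50 at 77.7, 288 and 843 CPM against 16.1, 40.4 and 62.1 CPM in floxed tumours, and all 4 and Ces1d, a carboxylesterase, missed the threshold without deleted tumours 3, 4 and 6. Of 37 conjugating enzymes and NRF2 targets 7 rose and 1 fell (21.6% called, against 7.78% of all tested genes), with 3 stable rises. Ugt2b5, a glucuronosyltransferase, and Ephx1, the microsomal epoxide hydrolase, rose by 1.34 ± 0.24 and 0.91 ± 0.19.

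Enzymes of amino acid and one-carbon metabolism rose in smaller number. Of 44 tested genes 9 rose and 1 fell (22.7% called, against 7.78% of all tested genes), and 6 of the rises were stable. On library totals without a factor 18 rose and none fell, and without deleted tumours 2 and 5 there were 13 that rose and none that fell. Csad, which makes taurine, was at 20.3, 50.9 and 67 CPM in floxed tumours and 108, 229 and 365 CPM in deleted tumours. Bhmt, which returns a methyl group from betaine to homocysteine, was at 105, 307 and 460.2 CPM and 797, 1320.4 and 2482 CPM. Both were higher in every deleted tumour than in any floxed tumour, and Bhmt in deleted tumours overlapped the 765 to 1321 CPM of normal livers. The log2 fold changes were 2.43 ± 0.37 and 2.36 ± 0.39 (adjusted p = 0.00451 and 0.0057). Dmgdh, which acts on the product of Bhmt, rose by 1.87 ± 0.31, Amt of the glycine cleavage system by 0.97 ± 0.16, Kynu of the kynurenine pathway by 0.86 ± 0.16 and Prodh, which degrades proline, by 2.39 ± 0.44. Without deleted tumours 3, 4 and 6 there were 4 genes that rose and 7 that fell, and Kynu and Prodh missed the threshold. The urea cycle and gluconeogenesis list had 3 of 28 genes higher and none lower (10.7% called, near the 7.78% of all tested genes), and no call was stable. At an unadjusted p under 0.05 there were 12 higher, with DESeq2 8, with voom 4, on library totals without a factor 12 and without deleted tumours 2 and 5 there were 6, none lower in each. Cps1, the first enzyme of the urea cycle, was at 335, 421 and 628 CPM in floxed tumours and 224, 521 and 1006 CPM in deleted tumours with full overlap.

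Growth hormone acts on hepatocytes through GHR and STAT5, and IGF1 is its main secreted product. Of 24 tested genes of this axis 5 rose, all with a stable call, and 1 fell (25% called, against 7.78% of all tested genes). The median log2 fold change of the list was 0.098, against 0.02 for all tested genes. Without deleted tumours 3, 4 and 6 there were 5 higher and 3 lower. Igf1 was at 68.1, 129 and 185 CPM in floxed tumours and 282, 333 and 624 CPM in deleted tumours. Ghr, the receptor, was at 89.4, 103 and 132 CPM and 152, 250.3 and 481 CPM. Neither overlapped between groups, and normal livers were higher, at 669 to 782 and 735 to 904 CPM. The log2 fold changes were 1.52 ± 0.26 and 1.46 ± 0.28 (adjusted p = 0.00665 and 0.0101). Igfals, which holds IGF1 in the circulation, rose by 1.75 ± 0.28 and Cish, a feedback inhibitor induced by STAT5, by 1.44 ± 0.34, while Onecut1 is the fifth. Cish missed the threshold without deleted tumours 2 and 5 and when all 15 libraries were fitted together. Igfbp1, an IGF-binding protein, was called lower, at 71.4, 237 and 1026 CPM against 1386, 2029 and 2478 CPM (-2.20 ± 0.53, adjusted p = 0.0243), and lost the call without deleted tumour 4. The activin subunits moved apart, Inhbe higher by 2.07 ± 0.31 and Inhbb lower, with a log2 fold change of -2.38 ± 0.56. Inhbb missed the threshold without deleted tumours 2 and 5 and without 3, 4 and 6.

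The stable rises with the greatest fold change were mostly in sex-biased or multicopy liver genes, several of them uncertain. Of 26 tested sex-biased genes and major urinary proteins 7 rose and none fell (26.9% called, against 7.78% of all tested genes). A stable call was found for 3. With an unadjusted p under 0.05 were 10 higher and 1 lower, DESeq2 called 10 and 1, voom 7 higher and none lower, and without deleted tumours 3, 4 and 6 edgeR called 3 and 2. Cyp4a12a, a male-biased fatty acid hydroxylase, was at 2.9, 16.1 and 61.1 CPM in floxed tumours and 76.3, 544 and 1020.3 CPM in deleted tumours, and the groups did not overlap. Mup17 and Mup10, 2 of the many near-identical major urinary protein genes, rose by 5.55 ± 0.84 and 4.15 ± 0.87, Sult2a7, a sulfotransferase with close copies, by 6.17 ± 1.19, and the non-coding host gene Snhg11 by 4.10 ± 0.73. Mup17 was at 0.0497, 0.485 and 1.55 CPM in floxed tumours and 6.79, 28.1 and 63.4 CPM in deleted tumours. Floxed tumours 1 and 2, at 0.0497 and 0.0562 CPM, lay below their counting floors of 0.149 and 0.169 CPM. Sult2a7 was at 0.0497, 0.221 and 0.353 CPM against 0.373, 9.32 and 52 CPM. It was near the counting floor in floxed tumours and unequal among deleted tumours. Gm4956, a predicted gene, was at 0.278, 0.44 and 1.12 CPM against 0.476, 5.85 and 20.5 CPM. Sult2a7, Mup10 and Gm4956 missed the threshold without deleted tumours 3, 4 and 6, and Sult2a7 and Gm4956 also with voom.

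The leading fall was in Psrc1, which encodes a microtubule-binding protein of the mitotic spindle and is also a p53 target. It was at 25, 37.7 and 73 CPM in floxed tumours and 2.79, 4.84 and 5.66 CPM in deleted tumours, and at 0.0406 to 0.148 CPM in normal livers. The groups lay far apart, with a log2 fold change of -3.14 ± 0.27 (adjusted p = 0.000242), or 8.84-fold lower. It belongs to a list of p53 targets, CDK inhibitors and RB family genes. Some of these genes, but not all, slow the cell cycle after damage or oncogene activity. The list was counted as a whole. Of its 32 tested members 8 fell, 5 with a stable call, and none rose (25% called, against 7.78% of all tested genes). The median log2 fold change of the list was -0.48, against 0.02 for all tested genes. Unadjusted p-values under 0.05 were found for 18 lower and 1 higher, and DESeq2 and voom called 15 and 12 lower and none higher. On library totals without a factor 4 fell. Btg2, an antiproliferative p53 target whose promoter is shown above, was at 105, 153 and 199 CPM and 31.7, 57.3 and 81.1 CPM. Cdkn2b, the CDK4 and CDK6 inhibitor p15, was at 29.8, 39.3 and 53.4 CPM and 5.19, 8.41 and 23.6 CPM. Both were lower in every deleted tumour than in any floxed tumour (-1.39 ± 0.23 and -1.88 ± 0.34). Its neighbour Cdkn2a, which encodes p16 and p19ARF, was at 9.82, 14.5 and 46.1 CPM and 1.82, 2.72 and 9.67 CPM (-2.39 ± 0.50, adjusted p = 0.0142), with deleted tumour 3 just under the lowest floxed tumour. It missed the threshold without floxed tumour 5 and deleted tumours 2 and 5. Normal livers had at most 0.326 CPM of Cdkn2b and 0.122 CPM of Cdkn2a. Zmat3, an RNA-binding p53 target, fell by 0.82 on the log2 scale (SE 0.17), and missed the threshold without a scaling factor and without deleted tumours 3, 4 and 6. The canonical p53 targets Cdkn1a and Mdm2 were not called by edgeR. Cdkn1a, which encodes p21, was at 51.3, 57.8 and 142 CPM against 7.1, 50.1 and 67.3 CPM (adjusted p = 0.31), and Mdm2 at 67.7, 77 and 119 CPM against 45.7, 56.2 and 75.5 CPM (adjusted p = 0.0797), both with overlap. Mdm2 was called lower by DESeq2 (adjusted p = 0.0234), in the joint fit of 15 libraries (0.0424) and without deleted tumour 5 (0.048).

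Proliferation genes were also counted. Of 48 tested genes of S phase and mitosis 1 rose and 1 fell (4.17% called, against 7.78% of all tested genes). The median log2 fold change of the list was 0.26, against 0.02 for all tested genes. Mki67, which encodes the proliferation marker Ki-67, was at 7.49, 28.6 and 49 CPM in floxed tumours and 10.4, 33.5 and 64.1 CPM in deleted tumours. Top2a, a topoisomerase of dividing cells, was at 4.94, 9.76 and 19.9 CPM and 3.35, 13.8 and 25.2 CPM. The groups overlapped over most of their range for both genes (adjusted p = 0.779 and 0.715). Ccne1, the cyclin of S phase entry, fell by 1.23 on the log2 scale (SE 0.27), and E2f8, an atypical E2F of polyploid hepatocytes, rose by 1.86 ± 0.33, both with stable calls. Without deleted tumours 3, 4 and 6 there were 4 genes of the list higher and 1 lower.

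A few genes that report ERK signalling were lower. RAS and RAF signalling through ERK induces the transcription factors ETV4, ETV5 and EGR1 and the Sprouty proteins that restrain the pathway. Of 25 tested genes of this output 4 fell, all with a stable call, and none rose (16% called, against 7.78% of all tested genes; median log2 fold change -0.65). At an unadjusted p under 0.05 there were 11 lower and 1 higher, DESeq2 and voom called 8 and 6 lower and none higher, and without deleted tumours 3, 4 and 6 there were 9 lower and 1 higher. Etv4 was at 2.53, 4.17 and 13 CPM in floxed tumours and 0.522, 0.831 and 1.46 CPM in deleted tumours. Egr1, an immediate early gene as well, was at 104, 184 and 342 CPM and 54.3, 60.6 and 128 CPM. Etv4 did not overlap between groups, and Egr1 overlapped through deleted tumour 3. The log2 fold changes were -2.63 ± 0.43 and -1.51 ± 0.32 (adjusted p = 0.0057 and 0.0153). Etv5 and Spry1 fell by 0.92 and 0.81 on the log2 scale, Spry1 missing the threshold without a scaling factor. Of 24 AP-1 and immediate early genes 3 fell with stable calls, namely Egr1, Btg2 and Ier2 (-0.83 ± 0.18). Another 1 rose, so that 16.7% of the list was called, against 7.78% of all tested genes. Egr1 in normal livers ran over both groups, at 48.6 to 218 CPM. Egr1 and Ier2 missed the threshold without floxed tumour 5 and deleted tumours 2 and 5, a set chosen after the principal components were seen. Rgs2, a brake on G protein signalling, was among the leading falls, from 23.2, 41.2 and 50.8 CPM to 7.92, 11.2 and 13.6 CPM (-1.77 ± 0.20, adjusted p = 0.000878).

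Channels for calcium and sodium are known mainly from neurons and muscle, and some of their genes were lower in deleted tumours. Of 26 tested ion channel and neuronal genes 4 fell, 3 with a stable call, and none rose (15.4% called, against 7.78% of all tested genes). At an unadjusted p under 0.05 there were 6 lower and 5 higher, DESeq2 called 4 lower and 1 higher, and voom 4 lower. Cacna1b, the pore of N-type calcium channels of neurons, was at 14.5, 24.2 and 45.6 CPM in floxed tumours. In deleted tumours it ran from 0 counts in deleted tumour 5 (which allows up to 0.112 CPM) over a median of 0.418 CPM to 2.02 CPM. Cacna1c, the pore of L-type channels, was at 4.65, 7.26 and 14 CPM and 0.672, 0.86 and 2.07 CPM. The groups lay apart for both genes, with log2 fold changes of -5.23 ± 0.74 and -2.82 ± 0.35 (adjusted p = 0.00293 and 0.00136). Scn8a, a sodium channel pore, was called lower (-1.45 ± 0.34) and lost the call without deleted tumour 4 and without deleted tumours 2 and 5. Orai2, a store-operated calcium channel subunit, and Ncs1, a neuronal calcium sensor, were among the 12 falls with the smallest p, at -1.58 ± 0.17 and -2.87 ± 0.37.

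Some leading falls were in genes best known from immune cells. Zap70, the kinase that couples the T cell receptor, was at 5.37, 18.1 and 40.5 CPM in floxed tumours and 0.366, 1.3 and 2.04 CPM in deleted tumours (-3.97 ± 0.47, adjusted p = 0.00129), and at 6.01 to 8.17 CPM in normal livers. Other T cell genes were not called: Cd3e, a receptor chain, was at 0.381, 0.606 and 3.46 CPM against 0.69, 1.1 and 2.01 CPM, and Lck, the kinase upstream, at 0.636, 1.91 and 6.96 CPM against 1.22, 2.15 and 3.53 CPM. Zap70 did not overlap between groups, whereas the ranges of Cd3e and Lck in deleted tumours lay inside those in floxed tumours. Of 24 tested T, NK and B cell genes Zap70 alone was called (4.17%, against 7.78% of all tested genes). The 34 listed genes in the table summed to 81.8, 103 and 224 CPM in floxed tumours and 73.4, 92.8 and 103 CPM in deleted tumours, with none at 0 in all tumours. Cd40, a costimulatory receptor of B cells, macrophages and some epithelia, fell from 8.74, 13.1 and 24.7 CPM to 2.12, 2.8 and 4.3 CPM, and Il3ra, a cytokine receptor chain, from 5.96, 9.05 and 13.3 CPM to 2.42, 2.9 and 3.77 CPM. Levels from fewer cells and from less RNA per cell cannot be told apart in these bulk samples.

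In the lists of other cells of the tumour 0% to 7.41% of tested genes were called, against 7.78% of all tested genes. Of 30 Kupffer cell and macrophage genes 1 was called lower and none was stable (3.33% called). Their sum was 1185, 1959 and 3529 CPM in floxed tumours and 1008, 1681 and 6952 CPM in deleted tumours, highest in deleted tumour 2. Spp1, which encodes osteopontin and is also on the bile duct list, took 3.55% to 86.7% of that sum, and without it the other 29 genes summed to 619, 1045 and 1843 CPM and 743, 928 and 1103 CPM. Clec4f, a marker of resident Kupffer cells, was at 24.5, 44.5 and 78.9 CPM and 20.6, 84.5 and 150.4 CPM, with overlap and no call, but was called higher without deleted tumours 2 and 5. Of 41 stellate cell and matrix genes 1 was called lower (2.44% called). Their sum was 3200.4, 3555 and 7582 CPM against 1968, 2805 and 3791 CPM, highest in floxed tumour 5. Without Fn1, a fibronectin that hepatocytes also secrete, the sum was 1015, 1228 and 5401 CPM against 897, 1447 and 2388 CPM. Of 27 endothelial genes 2 fell with stable calls (7.41% called, near the 7.78% of all tested genes). They were Stab1, a scavenger receptor of sinusoids (-0.60 ± 0.13), and Flt4, a VEGF receptor (-0.97 ± 0.23). The endothelial genes summed to 632, 848 and 1458 CPM against 529, 663 and 766 CPM. Stab1 missed the threshold without a scaling factor, and Flt4 without deleted tumours 2 and 5. No neutrophil gene of 10 tested was called by edgeR, with 2 lower at an unadjusted p under 0.05 and 1 lower each with DESeq2 and voom; the sum of the 20 listed genes was 309, 1187 and 1633 CPM against 76.3, 208 and 557 CPM. Lcn2, which injured liver also releases, took 58.9% to 99.2% of it, and the other 19 genes summed to 13.1, 49.7 and 73.3 CPM in floxed tumours and 23.1, 27.1 and 31.4 CPM in deleted tumours, with overlap. Vcam1, an adhesion molecule of activated endothelium, fell by 0.97, and the antigen-processing genes Psmb8 and Tap2 by 0.83 and 0.52 on the log2 scale. All 3 missed the threshold without a scaling factor. Vcam1 and Psmb8 did so without deleted tumours 3, 4 and 6 as well. Of 20 defining genes of pancreas, fat, muscle, blood and kidney 7 were at 0 in all tumours (Prss1, Cpa1, Amy2a5, Ins2, Plin1, Hba-a1 and Hbb-b1), 2 could be tested and 1 was called lower. Their sum was 66.7, 84.2 and 147 CPM in floxed tumours and 22.6, 52.9 and 77.2 CPM in deleted tumours. Cela1, an elastase of the pancreas, took 23.5% to 91.8% of it, and the other 19 genes summed to 8.15, 21.3 and 68 CPM against 17.3, 31.4 and 44.8 CPM. The handling of multiply matching reads is not given, so the 0 counts of the 7 genes do not show that blood or another tissue was absent. The sums without the most abundant gene of each list were added after the data were seen. The part of cell composition in these differences was not tested.

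Genes of tumour and fetal liver character were lower in part. Of 28 tested fetal and oncofetal genes 6 fell, 4 with a stable call, and 1 rose (25% called, against 7.78% of all tested genes). The median log2 fold change of the list was -0.82, against 0.02 for all tested genes. Ly6d, a surface protein, was at 178, 403 and 529 CPM in floxed tumours and 10.7, 36 and 80.1 CPM in deleted tumours. Prom1, the progenitor marker CD133, was at 17.4, 54.9 and 85.3 CPM and 7.64, 8.1 and 20.6 CPM. Ly6d did not overlap and Prom1 overlapped slightly, and normal livers had at most 0.691 CPM of Ly6d and 1.67 CPM of Prom1. The log2 fold changes were -3.22 ± 0.47 and -2.08 ± 0.40 (adjusted p = 0.00405 and 0.00997). H19, an imprinted fetal RNA, fell by 4.46 on the log2 scale (SE 0.99) with wide spread, and missed the threshold without deleted tumours 2 and 5 and without 3, 4 and 6. The list's 1 rise was Aldh1a1, described above. The classical markers Afp, which encodes alpha-fetoprotein, and Gpc3, a surface glypican, were at 109.9, 181 and 234 and 91.2, 294 and 1066 CPM in floxed tumours and 4.38, 56.5 and 121 and 19.4, 112 and 373 CPM in deleted tumours, and edgeR called neither (adjusted p = 0.104 and 0.154). DESeq2 called both lower (adjusted p = 0.0216 and 0.0473). In edgeR Afp was called lower without deleted tumours 3, 4 and 6 (log2 fold change -3.44, adjusted p = 0.0098) and without floxed tumour 5 and deleted tumours 2 and 5 (-1.29, adjusted p = 0.0443). Cd63, an endosomal membrane protein, fell by 1.40 (SE 0.23), without overlap. Pfkp, the platelet isoform of phosphofructokinase, fell from 8.82, 29.2 and 59.5 CPM to 3.86, 5.36 and 6.24 CPM (-2.63 ± 0.42), and it was the 1 called gene among 27 of glycolysis. Psat1 of serine synthesis fell by 1.84 and Serpina3n, an acute phase protease inhibitor, by 1.73.

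Further leading falls came from regulators of transcription and of cell shape. Tle6, a Groucho-family corepressor, was at 7.56, 8.01 and 15.4 CPM in floxed tumours and 1.19, 1.47 and 2.5 CPM in deleted tumours. Mycn, a MYC-family transcription factor, was at 2.7, 5.32 and 11.1 CPM and 0.298, 0.616 and 1.33 CPM. S1pr3, a receptor for sphingosine 1-phosphate, was at 13.8, 21.2 and 33.8 CPM and 1.6, 4 and 6.26 CPM. None of these genes overlapped between groups. Their log2 fold changes were -2.54 ± 0.26, -3.10 ± 0.42 and -2.38 ± 0.31, and Rarg, a retinoic acid receptor, and Sema6b, a semaphorin, followed at -0.89 ± 0.11 and -1.52 ± 0.19. The stable falls with the greatest fold change besides Cacna1b and H19 were Tmem146 (-6.53 ± 1.06), Tmem54 (-5.37 ± 1.11), Wfdc12, a secreted antiproteinase (-4.54 ± 0.84), and Mep1b, the meprin beta protease (-4.43 ± 0.85). In deleted tumours these 4 were at or below 1.65 CPM, and in floxed tumours Tmem54 ran from 0.636 to 73.4 CPM. Tmem146 and Tmem54 missed the threshold with voom, and Tmem54 also without deleted tumours 3, 4 and 6.

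**Figure D4:**
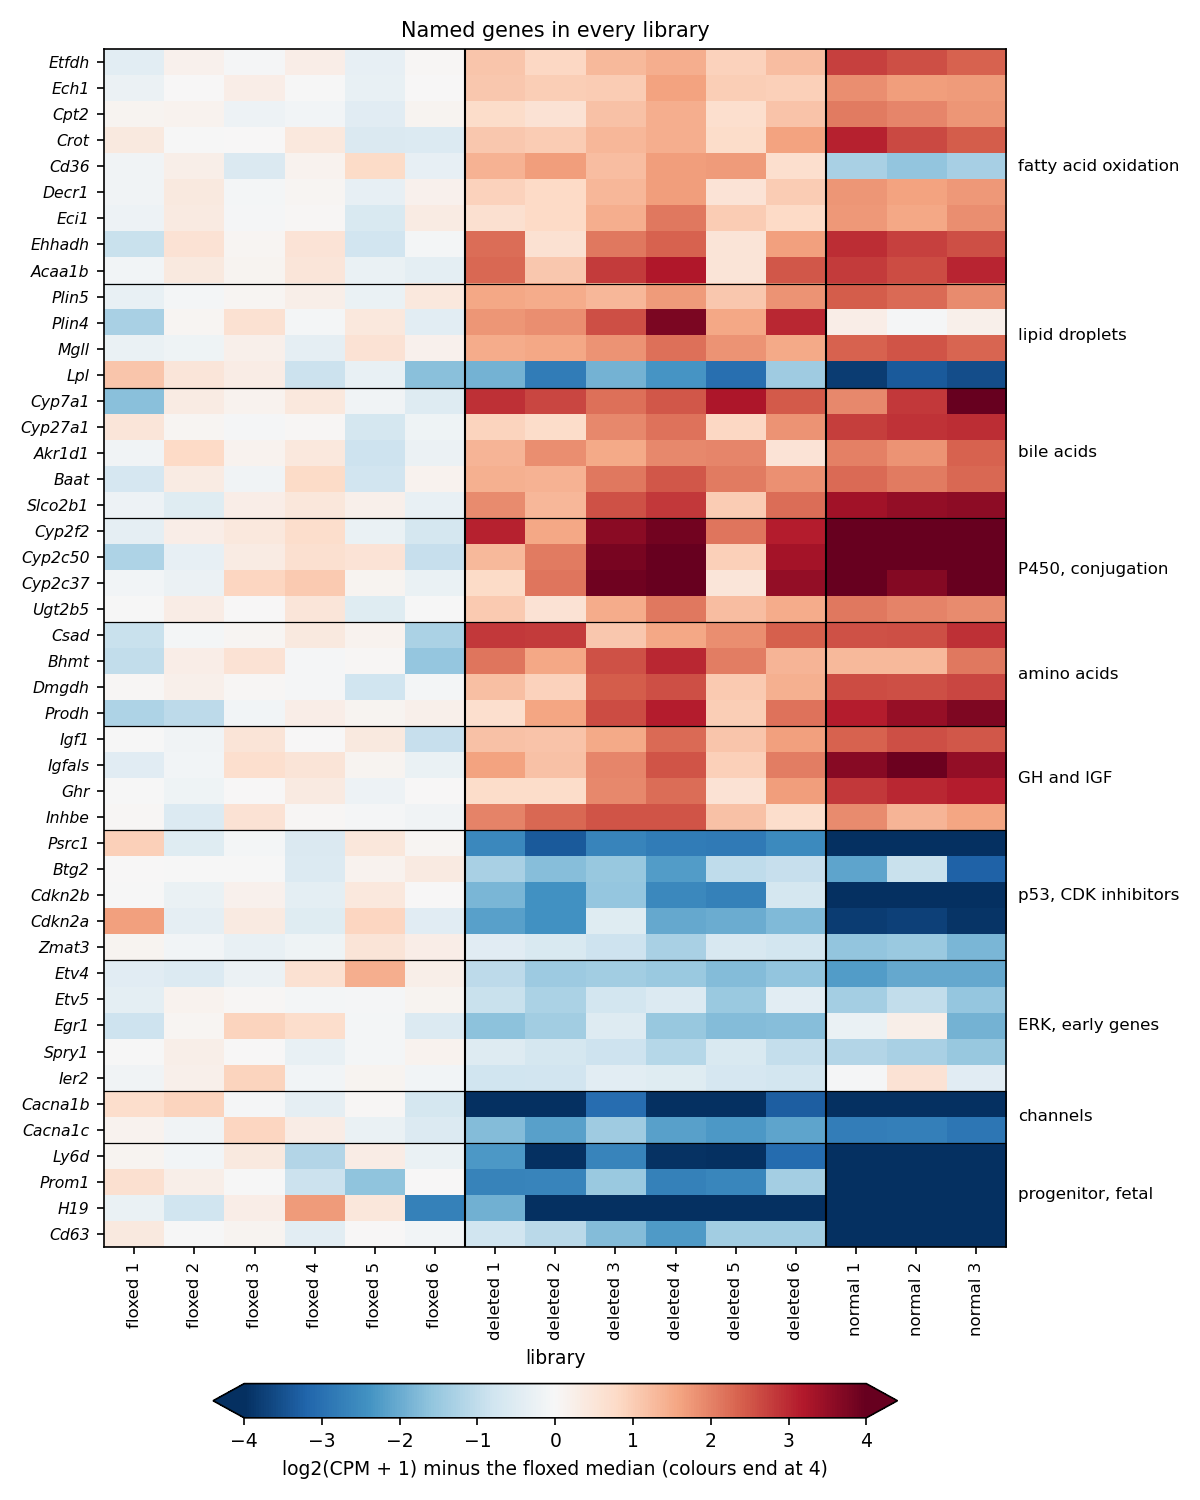
Rows are named genes by group and columns are the 15 libraries, and the colour is log2(CPM + 1) minus the median of the 6 floxed tumours, ending at 4 in either direction. Deleted tumours are red for the metabolic groups except Lpl and blue for the groups below them, and Cyp2c50 and Cyp2c37 are darkest in deleted tumours 3, 4 and 6.

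The receptors through which released HMGB1 is known to act, and the other alarmins, gave no stable call. Of 18 tested receptors and signalling adaptors 2 were higher and 1 was lower (16.7% called, against 7.78% of all tested genes). None was called without deleted tumours 3, 4 and 6. Ager, the receptor RAGE, was at 0.599, 1.27 and 2.27 CPM in floxed tumours and 0.478, 0.655 and 1.3 CPM in deleted tumours. Tlr4 was at 1.99, 2.47 and 4.9 CPM and 1.97, 2.53 and 3.37 CPM. Both overlapped between groups (adjusted p = 0.275 and 0.861). Of 22 other alarmin, inflammasome and necroptosis genes 2 were lower (9.09% called, near the 7.78% of all tested genes), none with a stable call. Il1b, which encodes interleukin 1 beta, was at 2.25, 3.67 and 6.66 CPM and 5.01, 6.74 and 9.29 CPM (adjusted p = 0.114, and 0.0439 with voom). Of 24 autophagy and lysosome genes 3 rose, none stably, and 1, Cd63, fell (16.7% called, against 7.78% of all tested genes). Becn1, a beclin that HMGB1 is known to bind, was at 33.1, 39.1 and 43.7 CPM and 35.2, 40.7 and 49.1 CPM (adjusted p = 0.628).

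The remaining lists of hepatocyte functions gave 0 to 6 calls each, to be read beside the 7.78% called among all tested genes. Of 28 hepatocyte transcription factors and nuclear receptors 2 rose (7.14% called). Hnf4a was at 350, 559 and 994 CPM in floxed tumours and 410, 618 and 885 CPM in deleted tumours (adjusted p = 0.863). Of 50 plasma protein genes 2 rose, C9 and C8b of the complement pore (1.51 ± 0.31 and 1.53 ± 0.34), and 1 fell (6% called). The median log2 fold change of the list was -0.28, and without deleted tumours 3, 4 and 6 there were 5 lower. Glul, the pericentral glutamine synthetase, was at 58.5, 84.6 and 257 CPM and 145, 309 and 816 CPM and missed the threshold (adjusted p = 0.0574). It was called higher by DESeq2 and voom (adjusted p = 0.00666 and 0.0124), in the joint fit, on library totals without a factor and without deleted tumours 2 and 5. Without deleted tumours 3, 4 and 6 the log2 fold change of Glul in edgeR was 0.57 (adjusted p = 0.484). Of 24 pericentral and beta-catenin target genes 4 rose and none fell (16.7% called, median log2 fold change 1.19 against 0.02 for all tested genes). Calls were stable for Cyp27a1 and Aldh3a2 (1.67 ± 0.29). At an unadjusted p under 0.05 there were 12 higher and 2 lower, and DESeq2 and voom called 9 and 7 higher and none lower. On library totals without a factor 8 rose, and without deleted tumours 2 and 5 there were 7, none lower in each. Without deleted tumours 3, 4 and 6 there were 2 higher and 1 lower. No gene of 31 in the respiratory chain was called by edgeR, with 12 higher at an unadjusted p under 0.05, 3 higher with DESeq2 and 4 with voom, and 14 were called higher on library totals without a factor. No gene of 27 in the cholesterol list was called either, with 9 lower at an unadjusted p under 0.05 and 2 lower each with DESeq2 and voom. Without deleted tumours 3, 4 and 6 there were 7 cholesterol genes lower. Of 27 ribosomal genes 6 were lower (22.2% called, against 7.78% of all tested genes) but only Rpl3 stably (-0.45 ± 0.10). At an unadjusted p under 0.05 there were 13 lower and 1 higher. DESeq2 called 13 lower and 1 higher, voom 6 and 1, and edgeR with RLE factors 7 lower. None of these genes was called lower on library totals without a factor or without deleted tumours 3, 4 and 6. No clock gene of 19 was called by edgeR, with 1 lower at an unadjusted p under 0.05, none with DESeq2 and 1 higher with voom. Gjb2 and Cdh2, which encode connexin 26 and N-cadherin of hepatocyte junctions, rose by 1.07 and 0.47 on the log2 scale. Cdh2 and C8b missed the threshold without deleted tumours 3, 4 and 6.

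**Figure D5:**
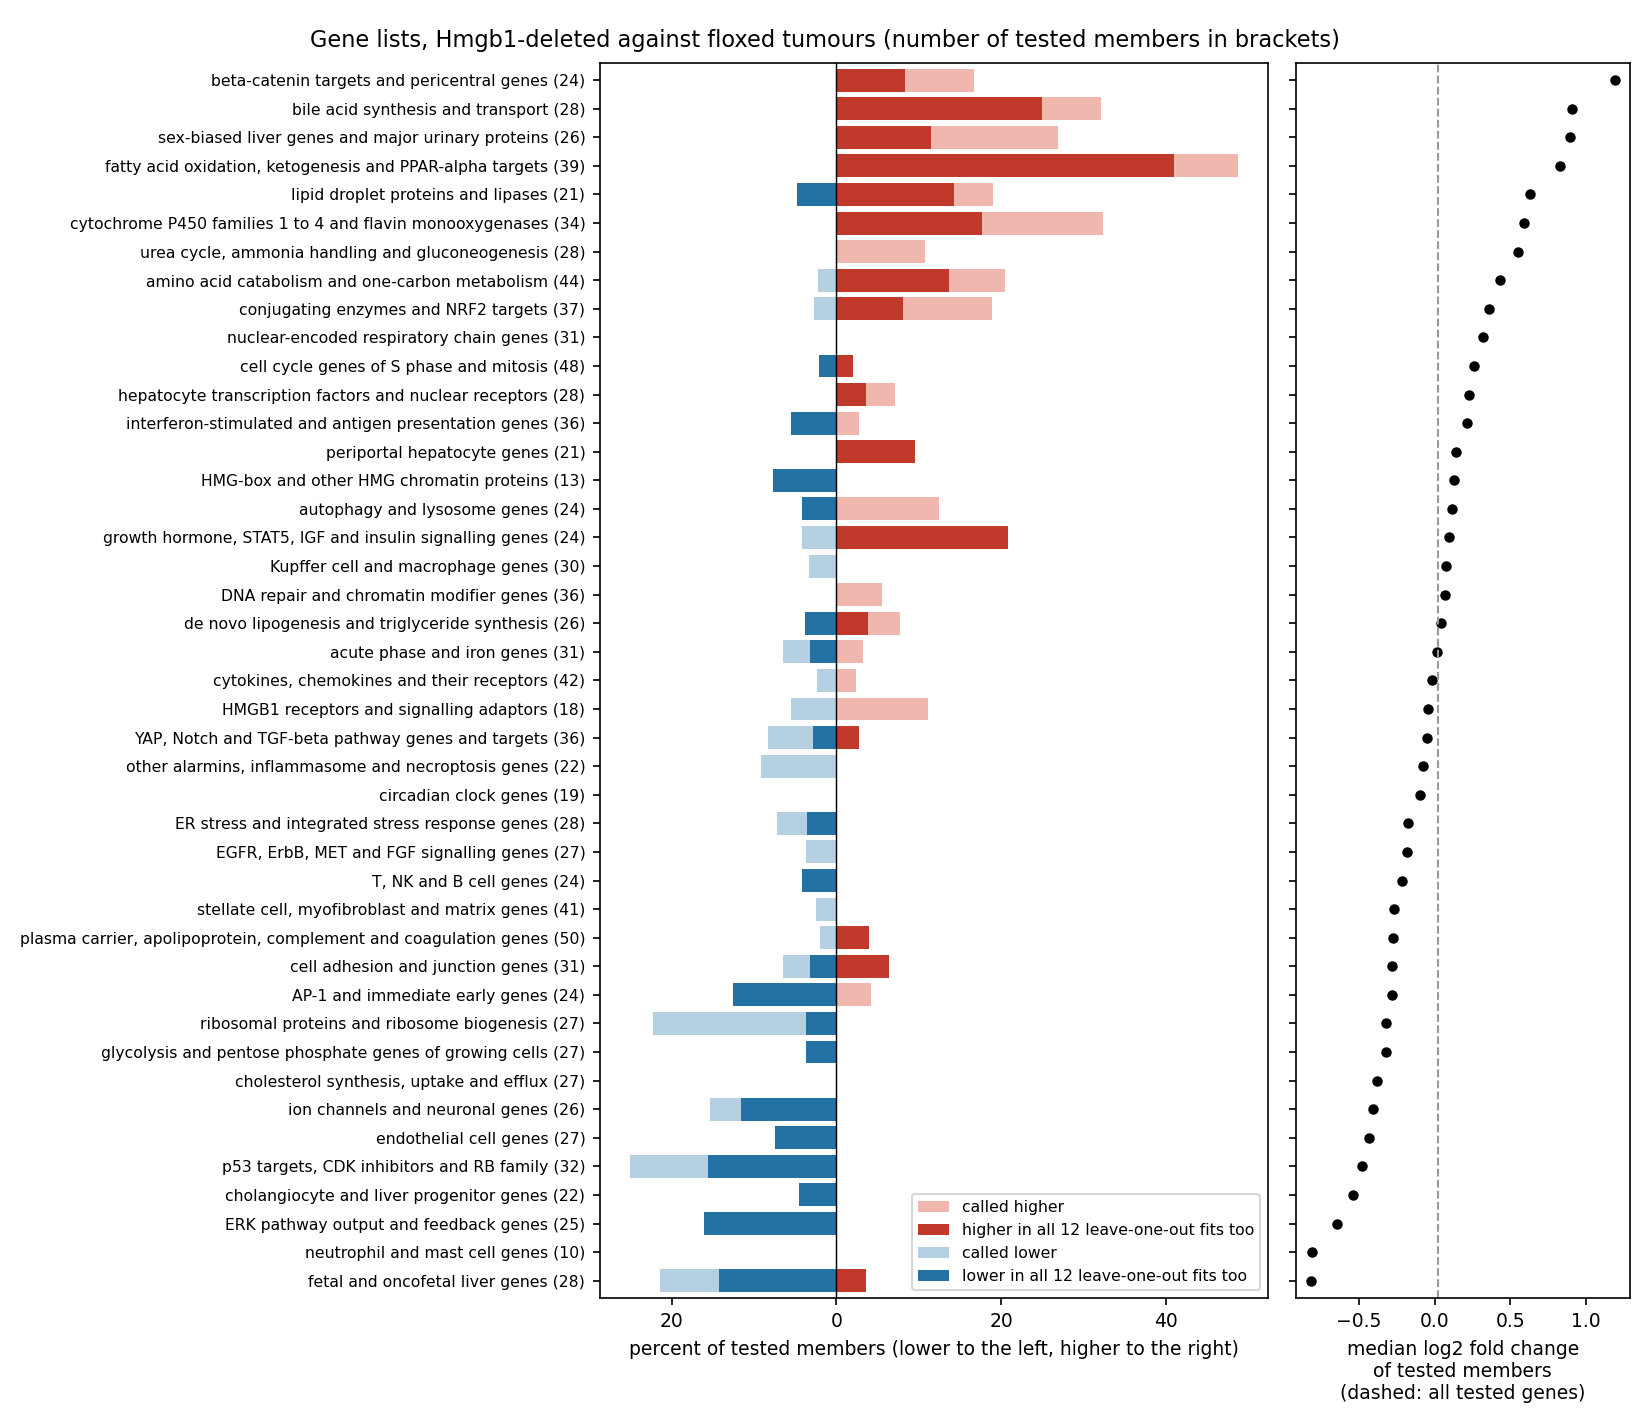
Left, for each gene list with at least 10 tested genes, the percent of tested members called higher (red, to the right) or lower (blue, to the left) in Hmgb1-deleted tumours, with stable calls in the dark shade; right, the median log2 fold change of the members, with a dashed line at 0.02 for all tested genes. Fatty acid oxidation has the longest bar at 48.7% and the fetal list the lowest median at -0.82.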

How the data were processed

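Per the labels' protocols, column-purified and DNase-treated RNA was selected for poly-A tails and made into libraries (TruSeq RNA). The authors deposited raw counts of reads, not normalized, for 23284 gene symbols in 15 libraries. The submitters' processing notes name HTSeq 0.6.1, TopHat2 2.1.0 with Bowtie2 2.2.4, bcl2fastq 1.8.4 and build mm9. The annotation, strand setting and handling of multiply matching reads are not given there or in the labels, so close copies (Mup, Cyp2c, Cyp4a, Sult2a, Ugt2b, Acot1 and Acot3) and antisense genes are uncertain.

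Groups came from the sample labels. In R 4.3.3, edgeR 4.0.16 was fitted to the 12 tumours (filterByExpr, TMM factors, robust quasi-likelihood F test, group as the only term), which left 13433 genes and 9851 symbols not tested, 4436 of them with 0 counts in every tumour. Standard errors come from the F statistic. CPM levels use TMM factors over all 15 libraries. Hmgb1 was tested on log2(CPM + 1) with an exact permutation test. No library repeated another of its group (chi-square over its degrees of freedom was at least 26.3). With 18973246 to 30929442 counts per tumour library, counting error is small for most genes named, and the floors (3 counts) cover that error only. The scripts were tested on simulated data.

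The 44 gene lists and the comparison were chosen with earlier results of these data known. Of 1340 list entries 1328 matched by symbol, 10 by synonym and 2 not at all. The text names Hmgb1 and its family, the 12 calls with the smallest p and the 6 stable calls with the largest fold per direction at a mean log2 CPM of at least 1, and up to 5 called and 2 uncalled members of each list. Fatty acid oxidation genes beyond the first 5, Akr1d1, Slco1b2, Cyp2c29, Prodh, Igfbp1, Il3ra, Afp, Mdm2, Il1b and the uncalled genes given by level alone were chosen after their values were seen, and some genes under the rule are not reported here. Promoter windows of 300 bases came from RefSeq (GRCm38.p6) for 9582 tested genes, which have another build than the counts, so no other coordinates are given. Alternatives were other scalings and filters, DESeq2 1.42.0, voom in limma 3.58.1, a joint fit of 15 libraries, the replicate number as a block, and libraries left out.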

Additional observations from a re-analysis of the deposited data

Results flagged for a closer look

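In the named genes, 12 groups of 6 tumours held 1 library that stood apart from the other 5 in log2(CPM + 1) by Dixon's test at the 95% level, which sets the gap to the nearest library against the group's range. Chance flags about 1 in 20 groups, and 246 groups were searched. Among deleted tumours, tumour 1 was low in Hmgb1 itself (9.59 CPM, others 14.8 to 17.8 CPM) and high in H19 (18.4 CPM, others 0.377 to 1.49 CPM). Deleted tumour 3 was high in Cdkn2a (9.67 CPM, others 1.82 to 3.45 CPM) and Egr1 (128 CPM, others 54.3 to 69.7 CPM). Ech1 was high in deleted tumour 4 (362 CPM, others 226 to 248 CPM), Onecut1 in deleted tumour 6 (19.4 CPM, others 8.39 to 10.8 CPM), and Psrc1 was low in deleted tumour 2 (2.79 CPM, others 4.48 to 5.66 CPM).

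Among floxed tumours, tumour 5 was low in Dmgdh (47.3 CPM, others 78.1 to 95.2 CPM). Cyp2c29 was low in floxed tumour 1 (28.9 CPM, others 73.7 to 105 CPM), Scn8a was low in floxed tumour 4 (71.4 CPM, others 110 to 137 CPM), and Gm4956 was high there (1.12 CPM, others 0.278 to 0.544 CPM). Ier2 was high in floxed tumour 3 (93.1 CPM, others 44.9 to 56.6 CPM). No library took more than 2 of these flags.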

How the results depend on the processing

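The 1045 calls became 1954 with DESeq2, 1629 with all 15 libraries in 1 fit and 243 at an adjusted p under 0.01. Counts with 1 library left out ran from 589 (without deleted tumour 4) to 1054, and for Hmgb1 the difference ran from -0.94 to -0.78 each with a permutation p of 0.00216, the smallest possible, while on library totals without a factor it was -0.69 (p = 0.00433). RLE and upper-quartile factors, library totals, no filter, a filter of 1 CPM and voom gave 1059, 1121, 1239, 943, 1037 and 1493 calls. The split was 561 higher and 560 lower with upper-quartile factors and 470 and 473 without a filter. Without deleted tumours 2 and 5 there were 1082 calls, of which 725 were among the 1045, and without 3, 4 and 6 there were 808, of which 381 were (344 higher and 464 lower). Without floxed tumour 5 and deleted tumours 2 and 5, a choice made after seeing the data, there were 955. Of the 509 stable calls 478, 307 and 449 passed in these fits. The cause was not tested, and fewer tumours entered each fit.

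Of 115 named genes that were called, none changed direction in a setting that tested it, and the filter of 1 CPM tested 111 of them. Those that missed the threshold numbered 29 without deleted tumours 3, 4 and 6, 9 without floxed tumour 5 and deleted tumours 2 and 5 (Scd2, Nr1h4, Inhbb, Cdkn2a, Egr1, Ier2, Scn8a, Stab1 and H19), 7 on library totals, 6 without deleted tumours 2 and 5, 4 with voom, 3 without deleted tumour 4 (Nr1h4, Igfbp1 and Scn8a) and 2 in the joint fit. Hmgb2, which was not called, turned from 0.30 to -0.091 with voom, to -0.29 without deleted tumours 2 and 5 and to -0.23 without floxed tumour 5 as well. The replicate numbers gave no pairing: same-numbered tumours deviated from their group means with correlations of -0.27 to 0.23 across genes, and 1 of 6 correlated best with its own number. With the replicate block there were 860 calls, and Cyp2c29, Stab1, Flt4, Tmem54 and Cdh2 missed the threshold. The count of genes without overlap (662) ran from 646 to 810 and the share with larger SD in deleted tumours (48.6%) from 48.1% to 49.2% under other settings.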

Other observations

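In the lists not described above 3.7% to 12.9% of tested members were called, against 7.78% of all tested genes. Of 22 cholangiocyte and progenitor genes 1 fell, Prom1 (4.55% called), while DESeq2 and voom called 4 lower each and none higher. Krt19, a keratin of bile ducts, was at 0.398, 1.6 and 4.66 CPM in floxed tumours and 0.597, 1.56 and 2.53 CPM in deleted tumours. The list's sum was 2748, 3389.5 and 4894 CPM against 1505, 2587 and 8646 CPM, highest in deleted tumour 2, and without Spp1 it was 1936, 2568 and 3209 CPM against 1309.7, 1884 and 2622 CPM. Of 21 periportal genes 2 rose, Cyp2f2 and Igf1 (9.52% called), while DESeq2 called 4 higher and 3 lower, and voom 3 and 1. Of 36 genes of the YAP, Notch and TGF-beta pathways 1 rose, Inhbe, and 3 fell, of which Inhbb was stable (11.1% called). Without deleted tumours 3, 4 and 6 there were 5 higher and none lower. DESeq2 called 4 higher and 5 lower, and voom 1 and 2. Of 42 cytokine and chemokine genes 1 rose and 1 fell, neither stably (4.76% called). Without deleted tumours 3, 4 and 6 there were 7 that rose and 2 that fell. DESeq2 called 4 higher and 3 lower, and voom 2 and 3. Of 27 genes of EGFR, MET and FGF signalling 1 fell (3.7% called), and of 36 DNA repair and chromatin modifier genes 2 rose (5.56% called). None of these calls was stable. DESeq2 called 1 higher and 2 lower in the first list and 3 in each direction in the second. With voom there were 1 lower in the first, and 3 higher and 1 lower in the second.

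Of 28 ER stress genes 2 fell, of which Psat1 was stable (7.14% called, against 7.78% of all tested genes). DESeq2 and voom called 5 and 4 of them lower and none higher. Of 31 acute phase and iron genes 2 fell, of which Serpina3n was stable, and 1 rose (9.68% called). In that list DESeq2 called 5 higher and 6 lower, and voom 2 and 4. Of 36 interferon and antigen presentation genes 2 fell stably, Psmb8 and Tap2, and 1 rose without a stable call (8.33% called). DESeq2 called 3 higher and 4 lower, and voom 1 and 5. Of 31 adhesion genes Gjb2 and Cdh2 rose and 2 fell, of which Vcam1 was stable (12.9% called). DESeq2 called 3 higher and 6 lower, and voom 2 and 5. Lcn2, a lipocalin released by injured liver and neutrophils, was at 279, 1137 and 1619.9 CPM and 45, 183 and 528 CPM. It was not called by edgeR (adjusted p = 0.0511), while DESeq2 and voom called it lower (adjusted p = 0.002 and 0.0193). In edgeR its log2 fold change was -1.44 without deleted tumours 3, 4 and 6 (adjusted p = 0.148). Without deleted tumours 2 and 5 it was -2.47 (adjusted p = 0.0475).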
